A study of Mus musculus with 4 samples.

Results

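Translation initiation factors are the proteins that load a ribosome onto an mRNA and set it at the start codon. eIF2 carries the initiator tRNA to the small ribosomal subunit, and eIF2B recharges it with GTP after each round; phosphorylation of eIF2 by stress kinases blocks that recharging. eIF3 is the large scaffold on the small subunit, eIF1 and eIF1A hold it in a scanning state, and eIF5 triggers GTP hydrolysis when the start codon is met. The eIF4 group finds the mRNA: eIF4E binds the cap, eIF4G is the scaffold, eIF4A is the helicase that eIF4B and eIF4H assist, and the eIF4E-binding proteins compete with eIF4G for eIF4E when mTORC1 signalling is low.

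The genes described here were the protein-coding genes whose mouse symbol begins with Eif and a digit of 1 to 6, without the eIF2 kinases Eif2ak1 to Eif2ak4. They numbered 51 of the 55487 gene IDs in the count table: 4 subunits of eIF2, 5 of eIF2B, 14 genes of eIF3, 16 of the eIF4 group, and 12 other factors (eIF1, eIF1A, eIF2A, eIF2D, eIF5, eIF5A, eIF5B, eIF6 and their paralogs). Expression was measured by RNA sequencing in group 2 innate lymphoid cells (ILC2s), tissue-resident lymphocytes that release type 2 cytokines. Cells sorted from mouse colon were either exposed to FK866 for 16 h (n = 2) or kept as controls (n = 2), and all cultures held the alarmins IL-33 and IL-25 together with IL-7 and IL-2. FK866 inhibits NAMPT, the enzyme that salvages nicotinamide into NAD+. The labels give no strain, age or sex of the mice and no dose of FK866. They also do not say whether replicates came from separate animals or cultures. The Y-linked Eif2s3y had 674 and 0 counts in FK866 replicates 1 and 2, and 973 and 0 in control. Within each group the 2 replicates were therefore not repeats of 1 cell pool. How many animals each held is not given, so p-values reflect only how far these libraries differ, part of which can be technical.

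Library totals were 27617750 and 32241615 counts for FK866 replicates 1 and 2, and 37841233 and 32540325 counts for control replicates 1 and 2. In FK866 replicate 2, 22461 gene IDs reached 10 counts, more than in any other library (17152 in FK866 replicate 1, and 17563 and 18667 in control). All 11 ILC2 markers were present in every library, summing to 5181 and 4533 CPM in FK866 and 4972 and 4967 CPM in control, with 1 called higher (Rora), 2 called lower (Il13, log2 -1.49, and Icos, log2 -0.84) and 7 of 11 below 0. Among them Gata3 was at 698.6 to 841.8 CPM (counts scaled to library size) in FK866 and 947 to 1082 CPM in control, and Rora was at 1128 to 1185 CPM in FK866 and 337.3 to 374.6 CPM in control. The summed level of 9 T cell markers was 164.7 and 183.1 CPM in FK866 against 106.5 and 106.8 CPM in control, of which Cd28 alone held 127.7 and 141.9 CPM in FK866 and 63.0 and 55.4 CPM in control. The 8 myeloid markers summed to 14.4 and 11.7 CPM in FK866 and 5.56 and 5.43 CPM in control, the 5 B cell markers to 19.3 and 25.9 against 31.6 and 34.9 CPM, and the 8 epithelial markers to 28.3 and 41.3 against 42.8 and 56.1 CPM. Krt8 had 0 counts in all 4 libraries, and Itgam and Cd8a were at or near 0. The part of these lists in the results below was not tested, and in bulk RNA fewer cells of a type and less RNA per cell cannot be told apart.

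FK866 moved single factors in both directions and left most of the set without a call. Of the 51 genes, 49 passed the filter on low counts, and the germ cell cap-binding gene Eif4e1b and the binding-protein gene Eif4ebp3 did not, with at most 0.675 CPM in any library. In the fit across all genes 3 factors were called higher (Eif4a2, Eif4ebp1 and Eif5) and 6 lower (Eif4e, Eif4h, Eif5a, Eif1a, Eif1ax and Eif2d), at a Benjamini-Hochberg adjusted p under 0.05 in edgeR's quasi-likelihood test. These 9 were 18.4% of the factors tested, against 13.2% of all 19194 genes tested, of which 5.31% were called higher and 7.89% lower. Factor genes are well expressed, and among protein-coding genes with a mean of at least 20 CPM the called share was 26.3%, against 9 of 45 factors at that level, so the number of calls did not set the factors above their background. The median log2 fold change was -0.19 over the 49 factors and 0.03 over all genes tested. With the factors split at their median transcript length, it was -0.15 over the longer and -0.26 over the shorter ones. Neither the median nor the overlap counts that follow were compared with genes of like expression or length. The FK866 and control libraries did not overlap for 12 factors in the higher direction and 25 in the lower one, where 28.4% and 29.3% of all genes did so (57.7% in either direction).

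Without FK866 replicate 2 all 6 lower calls were lost, in a fit whose FK866 arm is 1 library assumed to vary like the controls. The 6 log2 fold changes were then -0.42 to -0.63, against -0.55 to -0.71 with all libraries, and FK866 replicate 1 lay below both control libraries for each of the 6 genes (Eif4e, Eif4h, Eif5a, Eif1a, Eif1ax and Eif2d). Factors called lower numbered 12 without FK866 replicate 1, 16 without control replicate 1 and 11 without control replicate 2; the 12 and the 11 each include Eif2s3y, whose fold change is no measure of FK866. All genes called lower moved the same way, to 828 without FK866 replicate 2 and to 1859, 2462 and 2066 in the other 3 fits, against 1514 with all libraries. An unadjusted p under 0.05 was found for 21 of the 49 factors and for 28% of all genes tested. This share was not taken over genes of like expression, here or for the groups below.

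**Figure D1:**
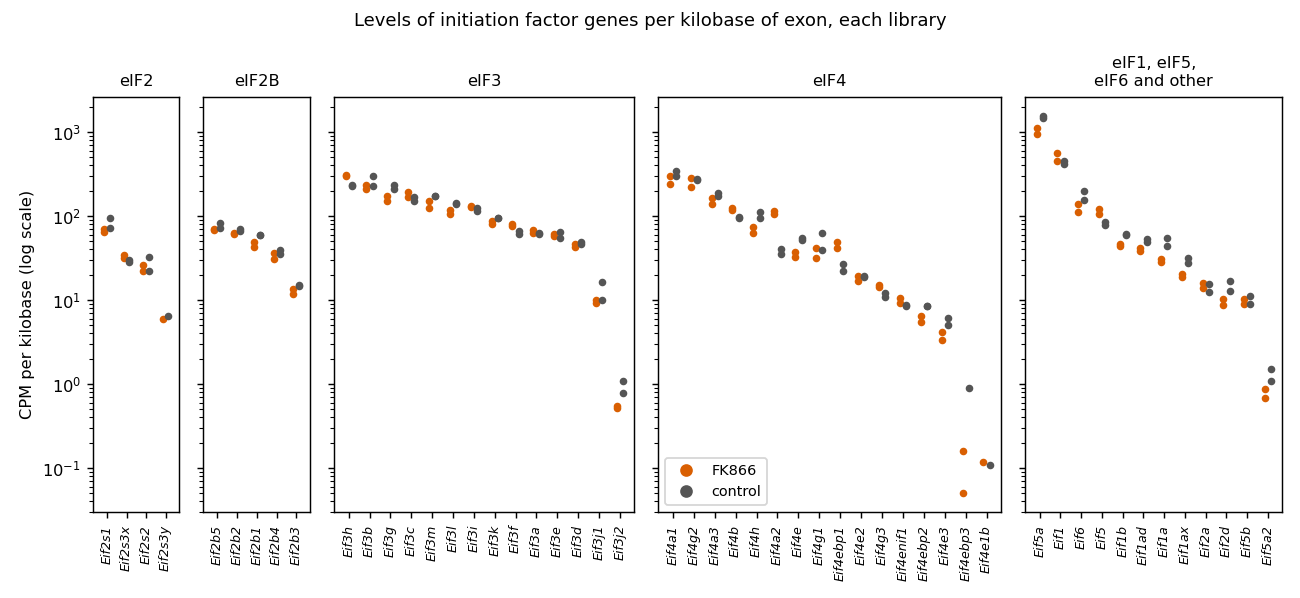
Levels of the initiation factor genes as CPM per kilobase of merged exon (log axis), 1 point per library, FK866 left of control within each gene; values of 0 cannot be drawn on this axis, which leaves out Eif2s3y in both replicate 2 libraries, Eif4e1b in both replicate 1 libraries and Eif4ebp3 in control replicate 1. Eif5a stands above all other factors in every library, and the FK866 points of Eif4a2 and Eif4ebp1 stand clear above their control points.

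Levels between genes were compared as CPM per kilobase of merged annotated exon, a scale that depends on which exons the cells use. Eif5a, which encodes the hypusinated factor eIF5A that helps ribosomes through difficult peptide bonds, was the most abundant, with 1036 CPM per kilobase in FK866 and 1521 in control (means, n = 2). By the mean over both groups it was followed by Eif1, the start codon selection factor (499.4 in FK866 and 430.5 in control), Eif4a1 (271.0 in FK866 and 318.7 in control), Eif3h (303.0 in FK866 and 232.3 in control) and Eif4g2 (252.2 in FK866 and 272.1 in control), and the order of the last 3 differed between the groups. Within eIF3 the means in FK866 ran from 0.532 for Eif3j2 to 303.0 for Eif3h. The tissue-restricted paralog Eif5a2 was at 0.781 CPM per kilobase in FK866 and 1.29 in control, far below Eif5a in both groups. Reads can be shared with close copies: 10 pseudogenes carry Eif names, the highest being Eif4a-ps4 with 792 and 776 counts in FK866 and 1350 and 1208 counts in control, and the paralogs Eif3j1 and Eif3j2 are uncertain for the same reason.

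The eIF4 group held the steepest rise. Eif4a2 (ENSMUSG00000022884, mm10 chr16:23107444-23114136, plus strand) encodes a helicase of the cap-binding complex and is a paralog of Eif4a1. It had 607.4 and 567.6 CPM in FK866 libraries, against 186.3 and 217.3 CPM in control libraries, a gap several times the spread within either group. Its log2 fold change was 1.54 ± 0.13 (SE), or 2.91-fold, with an edgeR adjusted p of 0.000964. It was called higher in all 15 alternative settings, with values from 1.33 to 1.66. Of its exon bases 13.3% overlap other annotated genes, among them Rfc4 on the other strand and small nucleolar RNA genes on its own strand, which these unstranded libraries cannot separate. Rfc4 itself fell by 0.79 on the log2 scale (edgeR adjusted p = 0.0134), at 32.1 CPM in FK866 and 55.6 CPM in control. Its paralog Eif4a1 had 1302 and 1046 CPM in FK866 and 1479 and 1283 CPM in control, with overlapping groups and a log2 fold change of -0.23 that did not pass (edgeR adjusted p = 0.327). Eif4a1 was called lower in 3 of the 15 alternatives, and its log2 fold change was -0.50 without FK866 replicate 1. Per kilobase, the ratio of Eif4a2 to Eif4a1 was 0.379 and 0.440 in FK866 libraries and 0.102 and 0.137 in control libraries. Eif4a3, the helicase of the exon junction complex, named after its values were seen, had a log2 fold change of -0.26 (edgeR adjusted p = 0.258).

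The RNA levels of Eif4e and of the binding-protein gene Eif4ebp1 moved in opposite directions. Protein levels and cap binding were not measured. Eif4ebp1 (ENSMUSG00000031490, mm10 chr8:27260329-27276674, plus strand), which encodes the main repressor of eIF4E and is a known target of ATF4 in other cells, had 107.0 and 91.8 CPM in FK866 against 58.8 and 48.6 CPM in control. The groups were well apart, the log2 fold change was 0.89 ± 0.16 (SE) with an edgeR adjusted p of 0.00991, and the call held in all 15 alternatives. Eif4e itself (ENSMUSG00000028156, mm10 chr3:138526179-138559696, plus strand) had 225.9 and 193.6 CPM in FK866 against 323.7 and 309.0 CPM in control, without overlap. Its log2 fold change was -0.59 ± 0.13 (SE, edgeR adjusted p = 0.0226), and without FK866 replicate 2 it was -0.46 and not called (adjusted p = 0.215). The ratio of Eif4ebp1 to Eif4e per kilobase was 1.30 in each FK866 library, against 0.497 and 0.430 in control libraries. Of the other cap-binding genes, Eif4e2, whose product represses translation with GIGYF proteins, was at 143.8 and 126.2 CPM in FK866 and 145.1 and 141.9 CPM in control, and the low-level Eif4e3 at 10.5 and 8.32 against 15.2 and 12.8 CPM. Neither was called (edgeR adjusted p = 0.734 and 0.156). Eif4ebp2, the second binding protein, was at 37.7 and 31.3 CPM in FK866 and 49.2 and 49.0 CPM in control, a log2 fold change of -0.51 ± 0.17 (SE) short of the threshold (edgeR adjusted p = 0.0773), opposite in sign to that of Eif4ebp1. It was called lower without FK866 replicate 1 (-0.75), without control replicate 1 (-0.61) and after the trend of fold change on transcript length and GC content was taken out (-0.73).

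Eif4h (ENSMUSG00000040731, mm10 chr5:134619721-134639490, minus strand), a partner of eIF4A in unwinding, fell to 412.1 and 345.6 CPM in FK866, against 612.8 and 524.1 CPM in control (log2 -0.59 ± 0.14, SE, edgeR adjusted p = 0.0299); without FK866 replicate 2 it was at -0.44 and not called (adjusted p = 0.214), nor was it called with no filter (-0.63, adjusted p = 0.0596). The gene of the related partner eIF4B, Eif4b, a target of S6 kinase, had higher values in both FK866 libraries, 521.4 and 553.4 CPM against 423.3 and 433.4 CPM in control, but did not pass (log2 0.33, edgeR adjusted p = 0.107); it was picked after its values were seen. Eif4b was called higher in 3 of the 15 alternatives, among them a stricter filter on low counts. The ratio of Eif4b to Eif4h per kilobase was 1.57 and 1.99 in FK866 and 0.858 and 1.03 in control. Among the scaffolds, Eif4g1 had 303.8 and 228.1 CPM in FK866 and 454.9 and 287.5 CPM in control, where the groups overlapped (log2 -0.48 ± 0.22, SE, edgeR adjusted p = 0.197). It was called lower without FK866 replicate 1 (-0.80), without control replicate 2 (-0.78) and after the length and GC trend was taken out (-0.67). Eif4g3 was at 168.5 and 156.4 against 133.6 and 119.1 CPM, with no overlap and a log2 fold change of 0.36 (edgeR adjusted p = 0.114). It was called higher when libraries were scaled by totals alone (0.41) and with a stricter filter on low counts (0.46), and its log2 fold change was 0.046 once the length and GC trend was taken out. Eif4g2, whose product lacks the eIF4E-binding part, was the most abundant scaffold at 2851 and 2277 CPM in FK866 and 2756 and 2776 CPM in control (log2 -0.11, edgeR adjusted p = 0.648). Over the eIF4 group, 2 of 14 tested genes were higher, 2 lower and 10 not called, with a median log2 fold change of -0.17. Of all genes tested 13.2% were called, and of protein-coding genes with a mean of at least 20 CPM 26.3%. The ratio of Eif4g3 to Eif4g1 per kilobase was 0.366 and 0.452 in FK866 and 0.194 and 0.273 in control. The ratios given for this group were formed after the values were seen. They carry no test, since 2 libraries against 2 allow no exact permutation p below 0.333.

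**Figure D2:**
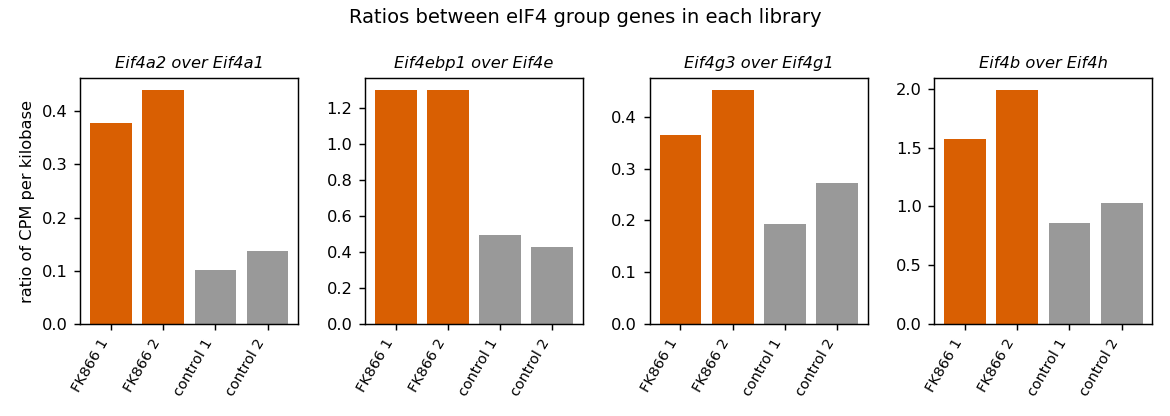
Ratio of CPM per kilobase between pairs of eIF4 group genes, 1 bar per library, FK866 libraries left of control libraries. In each pair both FK866 bars stand above both control bars, with Eif4a2 over Eif4a1 at 0.379 and 0.440 against 0.102 and 0.137. The pairs were chosen after the values were seen. Each sets a gene with a positive log2 fold change over one with a negative value, so this order largely follows from the choice.

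Promoters are shown for cap-complex genes that moved in opposite directions, Eif4e and Eif4h (lower) and Eif4a2 (higher). RefSeq windows on GRCm38.p6 were found for 39 of the 51 factors. The sequences are the 250 bases before an annotated start, 5′ to 3′ on the gene's strand, with capitals at each palindromic E-box CACGTG, the core bound by MYC and its relatives. They lie at chr3:138527018-138527267 (plus strand) for Eif4e, chr5:134639410-134639659 (minus strand) for Eif4h and chr16:23107218-23107467 (plus strand) for Eif4a2. For Eif4e, which has more than 1 window, the one that holds the motif is shown.
Eif4e: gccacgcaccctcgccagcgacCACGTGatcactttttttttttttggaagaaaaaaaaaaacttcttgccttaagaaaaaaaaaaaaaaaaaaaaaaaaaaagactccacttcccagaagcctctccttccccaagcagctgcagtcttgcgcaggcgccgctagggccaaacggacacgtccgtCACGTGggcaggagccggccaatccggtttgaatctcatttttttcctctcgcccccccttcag
Eif4h: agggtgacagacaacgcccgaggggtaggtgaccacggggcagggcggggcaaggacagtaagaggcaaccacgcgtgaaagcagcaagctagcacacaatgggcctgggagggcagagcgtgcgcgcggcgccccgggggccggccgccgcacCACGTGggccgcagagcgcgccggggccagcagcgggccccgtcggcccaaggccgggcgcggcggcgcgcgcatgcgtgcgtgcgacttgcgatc
Eif4a2: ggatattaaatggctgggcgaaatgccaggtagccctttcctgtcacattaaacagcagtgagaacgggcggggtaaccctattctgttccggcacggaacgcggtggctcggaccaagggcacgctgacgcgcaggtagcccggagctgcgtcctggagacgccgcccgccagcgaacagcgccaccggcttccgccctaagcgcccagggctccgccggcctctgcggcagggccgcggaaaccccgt
The Eif4e window has E-boxes that begin 228 and 64 bases before the start, and the Eif4h window has 1 that begins 96 bases before it. In windows of 300 bases, which add 50 bases after the start, an E-box was present for 3 of the 5 factors called lower that had a window (Eif4e, Eif4h and Eif5a), for 0 of the 2 called higher (Eif4a2 and Eif5) and for 7 of the 32 not called. Over all 39 factors with a window it was present for 10 (25.6%). By comparison 8.09% of all 27025 genes with a window had at least 1, and 7.15% of all 32851 windows. These shares cover genes at any level, and no share was taken over well-expressed genes alone. A gene was counted if any of its windows held an E-box. Eif4e and Eif5a each have more than 1 window, some without the motif, which gave them more chances of a match. The difference between the 5 and the 2 genes was not tested. The 8-letter core TGATGNAA of the ATF4 element, searched on both strands, was found in 3.97% of all windows and, among the 39 factors with a window, in that of Eif2s3x; Eif4ebp1 had no window and was not searched. A match is a run of letters, and no match says nothing of the factor.

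Of the 5 calls outside the eIF4 group, 3 were in factors of start codon recognition. Eif5 (ENSMUSG00000021282, mm10 chr12:111538016-111546752, plus strand), the GTPase activator of eIF2, rose to 816.5 and 727.2 CPM in FK866, against 528.8 and 583.2 CPM in control, without overlap (log2 0.47 ± 0.13, SE, edgeR adjusted p = 0.0403). It was not called without FK866 replicate 1 (0.29, adjusted p = 0.388), without control replicate 1 (0.30, adjusted p = 0.148) or with no filter on low counts (0.43, adjusted p = 0.362). Both genes for eIF1A fell. Eif1a (ENSMUSG00000057561, mm10 chr18:46597701-46616456, plus strand) had 129.7 and 119.1 CPM in FK866 against 181.5 and 225.5 CPM in control (log2 -0.71 ± 0.15, SE, edgeR adjusted p = 0.0175). Its X-linked copy Eif1ax (ENSMUSG00000067194, mm10 chrX:159372178-159389928, plus strand) had 107.9 and 99.9 CPM against 146.4 and 165.3 CPM (log2 -0.59 ± 0.14, SE, edgeR adjusted p = 0.0255). These copies are close in sequence and the counting of shared reads is not known, so they are not independent. Without FK866 replicate 2 they were at -0.63 and -0.51 and not called (adjusted p = 0.0802 and 0.198), and Eif1ax was not called with no filter either (-0.63, adjusted p = 0.0519). Eif1, the partner of eIF1A, had 1163 and 933.1 CPM in FK866 and 945.0 and 861.5 CPM in control, with overlapping groups (log2 0.21, edgeR adjusted p = 0.361), and its sign turned without FK866 replicate 1 (-0.049).

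Eif5a (ENSMUSG00000078812, mm10 chr11:69916714-69921958, minus strand) fell to 2664 and 2260 CPM in FK866, against 3727 and 3504 CPM in control (log2 -0.55 ± 0.12, SE, edgeR adjusted p = 0.0190). This call was lost with no filter (-0.60, adjusted p = 0.133), without FK866 replicate 2 (-0.42, adjusted p = 0.118) and when the length and GC trend was taken out, where the value was -0.30 (adjusted p = 0.119); its longest transcript is short at 1437 nt. Eif5a2 was at 4.41 and 3.44 CPM in FK866 and 5.42 and 7.52 CPM in control, which did not pass (edgeR adjusted p = 0.188). Eif6, which keeps ribosomal subunits apart and is needed for large subunit assembly, was at 378.7 and 303.7 CPM in FK866 and 537.0 and 417.8 CPM in control. The groups did not overlap, but the log2 fold change of -0.48 ± 0.17 (SE) missed the threshold (edgeR adjusted p = 0.0891). Eif6 was called lower in 5 of the 15 alternatives. These include the fits without FK866 replicate 1 (-0.75), without control replicate 1 (-0.39), without control replicate 2 (-0.66) and DESeq2 (-0.46). It was not called when the length and GC trend was taken out, and its longest transcript is short at 1500 nt. Its weakest value over the alternatives was -0.21. Eif2d (ENSMUSG00000026427, mm10 chr1:131153181-131187658, plus strand), which recycles ribosomes and delivers tRNA without GTP, fell to 75.1 and 63.6 CPM, against 122.6 and 94.7 CPM in control (log2 -0.65 ± 0.17, SE, edgeR adjusted p = 0.0382). Without FK866 replicate 2 it was at -0.51 and not called (adjusted p = 0.219), nor was it called with median-ratio size factors (-0.62, adjusted p = 0.0560). Of the 12 factors outside the 4 main groups, 1 was higher, 4 were lower and 7 were not called, with a median log2 fold change of -0.45. The called share was 13.2% of all genes tested and 26.3% of protein-coding genes with a mean of at least 20 CPM. A group of 12 genes is small to set against these shares.

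**Figure D3:**
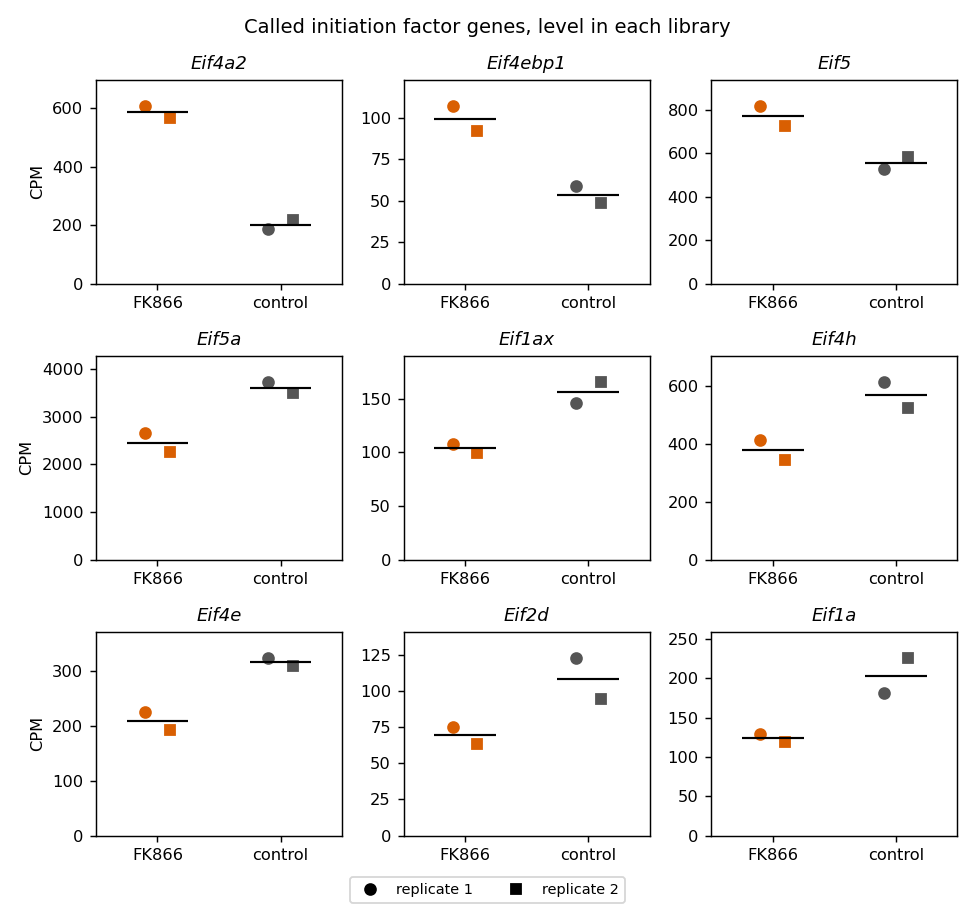
CPM of the 9 called initiation factor genes in each library (linear axes from 0), FK866 left of control, circles for replicate 1, squares for replicate 2 and a line at the group mean. The 3 genes of the top row are higher in both FK866 libraries and the other 6 are lower in both, with no overlap in any panel.

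The eIF2 and eIF2B groups, which sit at the centre of the stress-regulated step, had 0 calls among 4 and 5 genes. Of all genes tested 13.2% were called, and of protein-coding genes with a mean of at least 20 CPM 26.3%. Groups this small can hold 0 calls at either share, and this was not tested. Eif2s1, which encodes the α subunit that the stress kinases phosphorylate, had 344.0 and 315.5 CPM in FK866 and 354.6 and 467.8 CPM in control. The groups touch closely without overlap, and the log2 fold change of -0.32 had a 95% interval of -0.67 to 0.03 (edgeR adjusted p = 0.222); it was called lower without control replicate 1 (-0.61). Eif2s3x, for the γ subunit that binds GTP and tRNA, was at 120.0 and 131.1 CPM in FK866 and 106.7 and 114.3 CPM in control (log2 0.18, interval -0.12 to 0.49, edgeR adjusted p = 0.418). All 5 eIF2B genes had negative values, from -0.37 to -0.13, with a median of -0.17. Eif2b5, the catalytic subunit, was at 180.9 and 177.0 CPM in FK866 and 213.7 and 187.8 CPM in control (log2 -0.17, interval -0.46 to 0.13, edgeR adjusted p = 0.468), and Eif2b2 at 118.5 and 116.0 against 132.9 and 123.4 CPM (log2 -0.13, edgeR adjusted p = 0.583). The sign of Eif2b2 turned once the length and GC trend was taken out (0.10). An unadjusted p under 0.05 was found for 0 of the eIF2 genes and for 1 of the eIF2B genes, against 28% of all genes, and DESeq2 called 0 in both groups. That gene, Eif2b1, named for this reason after its values were seen, was at 127.1 and 110.9 CPM in FK866 and 153.5 and 153.3 CPM in control (log2 -0.37, edgeR adjusted p = 0.111). Without control replicate 1, Eif2b1 and Eif2s2, for the β subunit of eIF2, were called lower as well; Eif2s2 was at 175.0 and 148.4 CPM in FK866 and 148.6 and 219.6 CPM in control.

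Eif2s3y, the Y-linked copy of the γ subunit gene, had 674 and 0 counts in FK866 replicates 1 and 2, and 973 and 0 counts in control replicates 1 and 2. In CPM it was at 24.99 in FK866 replicate 1 and 26.8 in control replicate 1, while 0 counts allow up to 0.0882 CPM in FK866 replicate 2 and 0.0920 CPM in control replicate 2 (3 counts per library, counting error only). It thus divided the libraries by replicate number and not by treatment, and its fitted log2 fold change of -0.11 ± 1.81 (SE) has no use as a measure of FK866. The other Y-linked genes followed it: Ddx3y had 870 and 0 counts in FK866 and 861 and 0 in control, Uty 224 and 0 against 300 and 0, and Kdm5d 284 and 2 against 496 and 0. Xist, the X-inactivation RNA, was present in all 4 libraries, at 219.9 and 403.7 CPM in FK866 and 161.5 and 344.7 CPM in control. Both replicate 1 libraries therefore held Y-linked transcripts together with Xist, both replicate 2 libraries held Xist almost alone, and replicate number and sex-linked expression cannot be told apart. Eif2s3x was not lower in replicate 2 than in replicate 1 in either group.

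The eIF3 group, the largest complex of initiation, had 0 of 14 genes called, against 13.2% of all genes tested. Of protein-coding genes with a mean of at least 20 CPM 26.3% were called, and the difference from these shares was not tested. It had 6 values above 0, 8 below and a median log2 fold change of -0.13. The FK866 and control libraries did not overlap for 5 of its genes in the higher direction and 7 in the lower one, against 57.7% of all genes in either direction. An unadjusted p under 0.05 was found for 4 of the 14, against 28% of all genes, and DESeq2 called 1 higher and 1 lower. Its summed level was 5341 and 4917 CPM in FK866 and 5479 and 5198 CPM in control, so the groups overlapped. The core scaffold gene Eif3a was at 593.0 and 549.5 CPM in FK866 and 541.6 and 534.5 CPM in control (log2 0.09, 95% interval -0.18 to 0.35, edgeR adjusted p = 0.703), with its sign turned when the length and GC trend was taken out (-0.055). Eif3e was at 409.6 and 391.8 against 363.3 and 427.2 CPM (log2 0.02, interval -0.28 to 0.32, edgeR adjusted p = 0.948), and the RNA-binding subunit gene Eif3b at 788.7 and 693.2 against 993.9 and 756.6 CPM (log2 -0.24, edgeR adjusted p = 0.356), called lower in 1 of 15 alternatives, without control replicate 2 (-0.42). The smallest adjusted p-values of the group belonged to Eif3g and Eif3h, of which Eif3g was picked after the values were seen. Eif3h had 492.8 and 484.2 CPM in FK866 against 369.4 and 379.7 CPM in control (log2 0.38, interval 0.12 to 0.65, edgeR adjusted p = 0.0658), and Eif3g 342.2 and 297.9 against 460.0 and 419.6 CPM (log2 -0.46, interval -0.76 to -0.16, edgeR adjusted p = 0.0524). Each was within a short distance of the threshold, without overlap, and they lay in opposite directions. Eif3h was called higher in 8 of the 15 alternatives, among them DESeq2 (0.41), and Eif3g lower in 10. With the length and GC trend taken out Eif3h was called (0.64) and Eif3g was not. The weakest Eif3g value over the alternatives was -0.16.

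**Figure D4:**
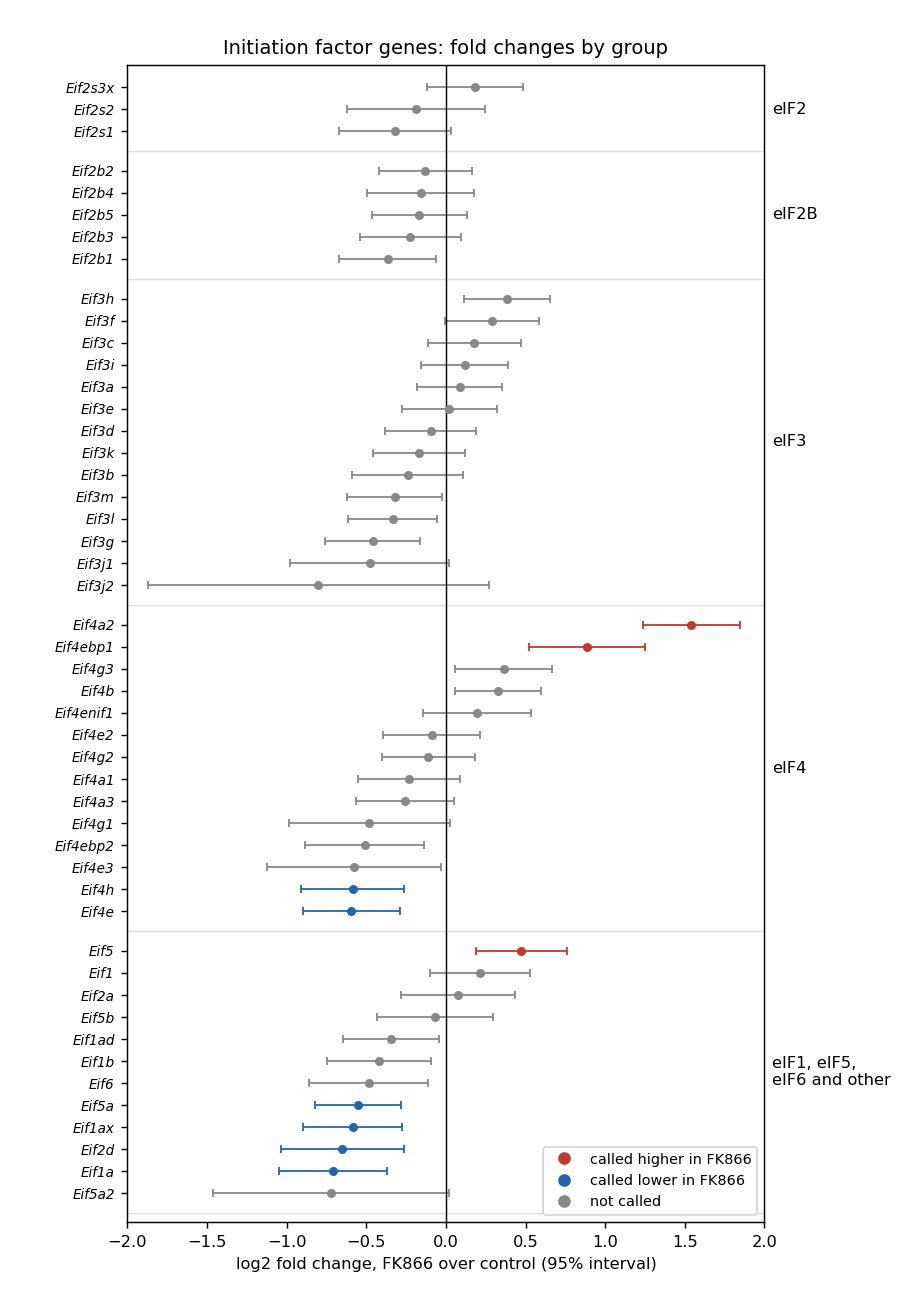
Log2 fold change of each tested initiation factor gene, FK866 over control, with its 95% interval from the edgeR fit, ordered by value within each group; red and blue mark genes called higher and lower, grey those not called. Eif2s3y is left out because of its wide interval. The eIF2, eIF2B and eIF3 panels hold no coloured point, and the eIF4 panel spans -0.59 to 1.54.

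Other genes of translation, in 5 lists chosen with earlier results of these data known, had 9 higher and 13 lower calls among 86 tested. For scale, 13.2% of all genes tested were called, and 26.3% of protein-coding genes with a mean of at least 20 CPM. No test set the calls of the lists, together or singly, against these shares. Of 14 eIF2 kinases, phosphatase subunits and downstream genes, 4 rose and 1 fell (median log2 fold change 0.23). Ppp1r15a, the inducible subunit that directs dephosphorylation of eIF2α, rose by 1.36 on the log2 scale to 107.8 and 98.2 CPM in FK866, against 41.4 and 38.7 CPM in control. Ddit3, the transcription factor CHOP, rose by 1.29 and Impact, an inhibitor of the GCN2 kinase pathway, by 1.03, and Atf4, the transcription factor of the same response, by 0.50 (edgeR adjusted p = 0.0458). The fall was in Eif2ak2, the interferon-induced kinase PKR, to 6.67 and 6.29 CPM in FK866, against 15.6 and 18.9 CPM in control (-1.41, edgeR adjusted p = 0.00758). The calls of Ppp1r15a, Ddit3, Impact and Eif2ak2 held in all 15 alternatives. That of Atf4, close to the threshold, was not followed over the alternatives.

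Of 29 cap-binding and scanning partners, 0 rose and 5 fell (median -0.14), among them Metap2, the enzyme that removes the initiator methionine (-0.63), Trmt61a, which methylates the initiator tRNA with Trmt6 (-0.76), the helicase gene Ddx1 (-0.46) and the eIF5 mimic gene Bzw2 (-0.45). An unadjusted p under 0.05 in the edgeR fit was found for 9 of these partners, against 28% of all genes. Of 17 kinases and regulators upstream of the cap complex 2 rose and 1 fell (median -0.03): Tsc1, an inhibitor of mTORC1, by 0.98, the AKT-activating kinase gene Pdpk1 by 0.76, and Akt1 at -1.28. Of 17 tested elongation and release factors, 2 rose and 4 fell (median -0.17). Eef1a1, the tRNA carrier of elongation, rose to 13370 and 12650 CPM in FK866, against 8023 and 8154 CPM in control (log2 0.69 ± 0.09, SE, edgeR adjusted p = 0.00407), and Eef2, the translocase, to 3733 and 3552 against 2762 and 2189 CPM (0.56). Eef1d (-0.55) and the release factor gene Gspt1 (-0.65) fell. Of 9 mitochondrial translation factors 1 rose and 2 fell (median -0.27), with the mitochondrial initiation factors in opposite directions: Mtif2 at -1.21 and Mtif3 at 1.04. For Mtif3, 29.4% of exon bases overlap other genes. Without FK866 replicate 2 the calls of Metap2 (-0.53), Trmt61a (-0.61), Ddx1 (-0.39), Bzw2 (-0.44), Pdpk1 (0.67), Eef1d (-0.51), Gspt1 (-0.50) and Tsfm (-0.44), the mitochondrial elongation factor, were lost, as was that of Bzw2 without FK866 replicate 1 (-0.53). With no filter on low counts the calls of Eef1a1 (0.64, adjusted p = 0.127), Eef2 (0.51, adjusted p = 0.260), Eef1d, Ddx1, Bzw2 and Tsfm were lost. Those of Ddx1, Bzw2 and Tsfm were also lost with median-ratio size factors, and those of Bzw2 and Tsfm when the length and GC trend was taken out.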

How the data were processed

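The authors deposited 1 table of raw read counts per Ensembl gene ID, as whole numbers, for 4 libraries. Per the labels' protocols, the SMART-Seq HT kit gave full-length cDNA and Nextera XT the libraries; these kits do not mark strand. Per the submitters' processing notes, cutadapt 1.9, HISAT2 2.2.1 and build mm10 were used; the counting program and its handling of shared reads are not stated. Symbols, gene types, positions and lengths came from GENCODE M21 (GRCm38), which matched 55227 of 55487 IDs.

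Counts were tested with edgeR 4.0.16 in R 4.3.3 (quasi-likelihood F test, TMM scaling, treatment as the only term, filterByExpr with a minimum count of 10 and total of 15), with adjustment over all 19194 genes tested. CPM uses filtered library totals times TMM factors, and SE was obtained from the log2 fold change and its F statistic. Alternatives included DESeq2 1.42.0, other scalings and filters, a replicate block, removal of a length and GC trend, and leaving out each library; 2 of the 15 were added after seeing the data. Genes named are every called factor, the 2 most abundant per kilobase in each group, a fixed set of factors of interest, and up to 4 called genes per list; Eif2b1, Eif2s2, Eif3g, Eif3j2, Eif4a3, Eif4b, Atf4 and Rfc4 were added after their values were seen. The members and lists were chosen with earlier results of these data known. The fit was tested on simulated counts drawn independently for each gene. It recovered 74 of 100 planted 2-fold changes and 99 of 100 planted 4-fold changes, with 9 false calls among 182. Smaller changes were not simulated, so this says nothing of how often they are missed.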

Additional observations from a re-analysis of the deposited data

How the results depend on the processing

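Over the results given, 600 of 690 alternative values of single genes kept their direction and their side of the threshold, 37 became calls, 35 lost the call and 18 changed sign. Apart from Eif2s3y, sign changes were of genes not called on either side. Eif3e turned to -0.024 with no filter, -0.065 with the length and GC trend taken out, -0.066 when the replicate block was added to that, and -0.0070 with library totals before the filter. Eif4e2 turned to 0.0051 with the stricter filter (a mean of at least 100 counts). With the trend taken out, Eif2b2 turned to 0.10 and Eif3a to -0.055, and with the block as well to 0.10 and -0.056. Over the fits that each leave out 1 library, Eif2s3y ran from -11.89 to 11.55, Eif3a from -0.065 to 0.16, Eif3e from -0.19 to 0.14, Eif1 from -0.049 to 0.39, Eif4e2 from -0.28 to 0.025 and Eif4g2 from -0.38 to 0.066. The cause was not tested.

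Factors called higher numbered 5 with scaling by totals alone and 7 with the stricter filter; factors called lower numbered 3 with no filter. For eIF3, 1 was called higher and 1 lower with totals alone, upper-quartile scaling or DESeq2, 2 and 1 with the stricter filter, 1 higher with the trend taken out, and 1 lower with totals before the filter or the newer quasi-likelihood fit. The eIF4 group had 1 lower with no filter, 4 higher with the stricter filter and 4 lower with the trend taken out; the other factors had 0 higher and 2 lower with no filter. The translation lists had 7 lower with median-ratio size factors and 7 with no filter. All genes called higher numbered 1768 with the stricter filter. Leaving out 1 library gave 661 to 1457 genes higher and 828 to 2462 lower, 2 to 4 factors higher and 0 to 16 lower, eIF2 0 to 1 higher and 0 to 2 lower (the higher call, and the lower call without FK866 replicate 1 or control replicate 2, are Eif2s3y), eIF2B 0 to 1 lower, eIF3 0 to 1 higher and 0 to 4 lower, eIF4 0 to 5 lower, other factors 0 to 1 higher and 0 to 6 lower, and lists 3 to 19 lower.

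The labels do not say that equal replicate numbers mark a shared source. The differences between replicates 1 and 2 in FK866 and in control correlated at 0.37 over 9897 genes, with 2 pairs, and Y-linked counts divided both groups by replicate number, a hint from the data. With the replicate block 2197 genes were higher and 3059 lower, with 7 and 19 factors, 1 lower in eIF2, 1 lower in eIF2B, 2 and 4 in eIF3, 4 and 6 in eIF4, 7 lower among the others and 25 lower in the lists. The block called lower, among genes named as not called, Eif4g1 (-0.46), Eif2s1 (-0.31), Eif2b1, Eif4ebp2 (-0.52), Eif6 (-0.48), Eif4a1 (-0.24), Eif4e3 (-0.58) and Eif3g, and higher Eif3h (0.38), Eif4g3 (0.36) and Eif4b. With the block and the trend taken out these were 1922 and 2531 genes, 8 and 11 factors, 3 and 1 in eIF3, 6 lower in eIF4, 2 higher among the others and 22 lower in the lists. Fold changes rose with transcript length across 9435 protein-coding genes (Spearman rho = 0.33, across genes that are not independent).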
